A study of Mus musculus with 6 samples.

Results

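Matriptase is a serine protease anchored in the epithelial cell membrane, and the genes described here are matriptase, its relatives in the same proteolytic circuit and the growth factor signalling that circuit can switch on. They are 10 genes: the proteases St14 (matriptase) and Prss8 (prostasin), the inhibitors Spint1 and Spint2, the protease-activated receptor F2rl1, the growth factor Hgf with its activator Hgfac and its receptor Met, and the related pair Mst1 and Mst1r. Members were the genes whose symbol was matched by the accession of a non-control array probe, and all 10 of 10 had a probe, among 27412 features tested in all. The set was chosen from the processed signals of these same 6 arrays, so the levels and differences of its members are given as a description.

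Gene expression was measured in 6 mouse (C57BL/6) hepatocellular carcinomas (HCC), 2 in each of 3 groups, from RNA of frozen tissue hybridised to 1-colour arrays. Epcam-derived HCC with CLC and Epcam-derived HCC without CLC both came from Epcam-AID mice that received tamoxifen and 0.1% DDC in the diet for 8 months. DDC is a chemical that disturbs heme synthesis and provokes a ductular reaction, and the series title calls these tumours derived from ductular progenitor cells. Albumin-derived HCC without CLC came from Alb-AID mice killed at 90 weeks of age. AID and CLC are not expanded in the labels, no age is stated for the Epcam-AID mice and no sex for any, and no non-tumour liver was analysed here. These groups are called tumours with CLC, CLC-free Epcam-derived tumours and Albumin-derived tumours from here on. Labelled origin, tamoxifen and diet therefore differ together between the Epcam-derived and the Albumin-derived tumours and cannot be told apart. Nothing in the labels says whether the 2 tumours of a group came from separate mice, so the SDs and tests measure the spread between these tumours only.

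Matriptase is made as an inactive precursor, and with prostasin it forms a pair of proteases that activate each other on epithelial surfaces. The Kunitz-type inhibitors HAI-1 (Spint1) and HAI-2 (Spint2) hold both in check, and PAR2 (F2rl1) is a receptor that matriptase can cleave. HGF is likewise secreted as an inactive precursor, in the liver mainly by stellate and other non-parenchymal cells, and is cleaved by the plasma protease HGFA (Hgfac), by matriptase or by hepsin before it can activate MET, a driver of hepatocyte growth and liver regeneration. MSP (Mst1), which hepatocytes secrete into plasma, is the HGF relative that activates RON (Mst1r).

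Levels are log2 signals relative to the 75th percentile of each array, so that 0 is that percentile and a difference of 1 is a doubling. They compare 1 gene between tumours and not 1 gene with another, because probes differ in brightness. A probe is called not well above background where the scanner software did not mark it so. Between 52.0% and 64.6% of probes were well above background on an array, and Pearson's r between arrays ran from 0.926 to 0.978. Both Albumin-derived tumours and tumour 1 with CLC were on slide 1, and both CLC-free Epcam-derived tumours and tumour 2 with CLC were on slide 2. A comparison within slide 2 therefore rests on 1 tumour with CLC, and so does one within slide 1. CLC-free Epcam-derived and Albumin-derived tumours shared no slide, and a slide effect could be separated from that difference only through the 2 tumours with CLC.

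Among the Epcam-derived tumours, set side by side by the presence of CLC, St14 showed the largest difference of the 10 genes, at 10.9-fold, and Spint1 was 2.64-fold higher with CLC, while the ligands and receptors Hgf, Met, Mst1 and Mst1r and the HGF activator Hgfac overlapped between the groups. Against the Albumin-derived tumours, both Epcam-derived groups had lower Spint1, Hgfac, Mst1 and Mst1r and higher Hgf in every tumour. St14 alone of the 10 lay on opposite sides of the Albumin-derived tumours without overlap, above them with CLC and below them without. These statements rest on 2 tumours a group.

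With limma and Benjamini-Hochberg adjustment over all features, 0 of 10 members passed in any of the 3 comparisons. Over all features 0% passed for Epcam-derived tumours with CLC against those without it, 0.244% for CLC-free Epcam-derived against Albumin-derived tumours, and 0.062% for tumours with CLC against Albumin-derived tumours. At an unadjusted p under 0.05 there were 2, 5 and 5 members in these comparisons, beside 3.48%, 20% and 16% of all features. With against without CLC, 3 members were higher and 1 was lower with no overlap between the groups, beside 10.3% and 19.8% of all features. For CLC-free Epcam-derived against Albumin-derived tumours, 3 members were higher and 6 lower without overlap, beside 30.4% and 24.8% of all features. Tumours with CLC against Albumin-derived tumours gave 2 higher and 4 lower, beside 23.8% and 27% of all features.

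**Figure D1:**
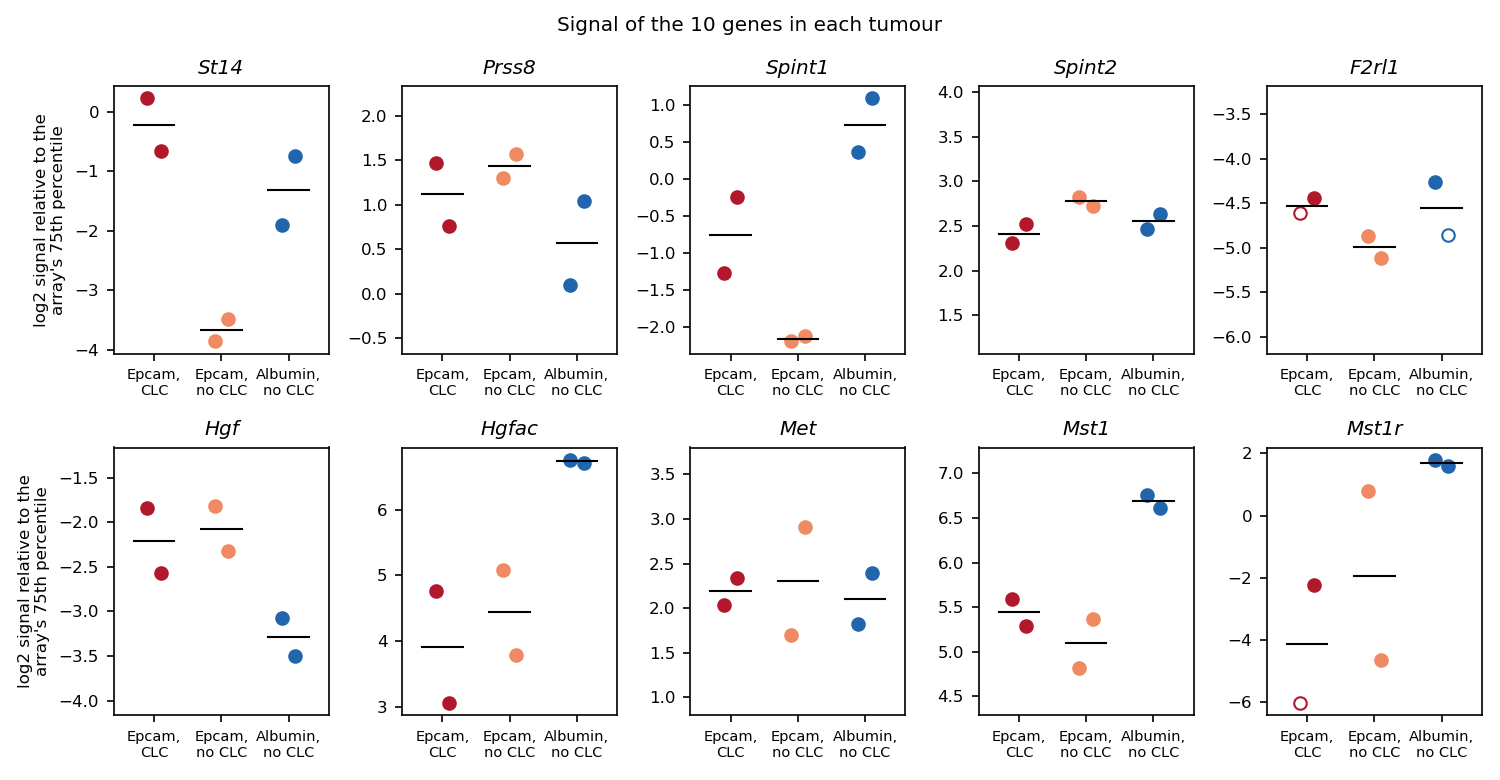
Log2 signal of each of the 10 genes relative to the array's 75th percentile (vertical axis, with its own range in each panel) in 2 Epcam-derived tumours with CLC, 2 CLC-free Epcam-derived tumours and 2 Albumin-derived tumours. Each point is 1 tumour, lines are group means and open points are not well above background; St14 is highest with CLC and lowest in CLC-free Epcam-derived tumours, and Hgfac, Mst1 and Mst1r are highest in both Albumin-derived tumours.

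Of the 6 members lower without overlap in CLC-free Epcam-derived than in Albumin-derived tumours, 4 had an entry in RefSeq's promoter table (GRCm38.p6), and their start regions are shown to let those genes be compared at their start sites. Each runs from 250 bases before the annotated start to 50 after it, on the plus strand of the genome: Spint1 at chr2:119237110-119237409, Hgfac at chr5:35041259-35041558, Mst1 at chr9:108080186-108080485, and Mst1r, at the more upstream of its listed starts, at chr9:107906639-107906938. Capitals mark matches, on either strand, to 8 short motifs: GTTAAT (an HNF1 half-site), CAAAGTCCA (an HNF4 core), TTGCNNAA (bound by C/EBP factors), GGGCGG (the GC box), CCAAT (the site of the factor NF-Y), CCGGAAG (an ETS core), TATAAA (the TATA box) and CACGTG (an E-box). A match on the minus strand shows the reverse complement of these letters.
Spint1: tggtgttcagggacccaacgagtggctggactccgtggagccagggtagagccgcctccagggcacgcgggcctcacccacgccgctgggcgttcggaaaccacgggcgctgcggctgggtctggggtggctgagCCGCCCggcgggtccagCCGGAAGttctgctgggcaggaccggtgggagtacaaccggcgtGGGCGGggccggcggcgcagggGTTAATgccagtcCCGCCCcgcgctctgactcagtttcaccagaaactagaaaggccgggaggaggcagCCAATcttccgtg
Hgfac: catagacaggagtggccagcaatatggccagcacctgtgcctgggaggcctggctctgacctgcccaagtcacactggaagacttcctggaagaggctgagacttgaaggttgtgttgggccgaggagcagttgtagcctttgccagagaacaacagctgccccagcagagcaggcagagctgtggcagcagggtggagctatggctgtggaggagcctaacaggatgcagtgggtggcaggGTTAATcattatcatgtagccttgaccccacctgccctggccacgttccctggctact
Mst1: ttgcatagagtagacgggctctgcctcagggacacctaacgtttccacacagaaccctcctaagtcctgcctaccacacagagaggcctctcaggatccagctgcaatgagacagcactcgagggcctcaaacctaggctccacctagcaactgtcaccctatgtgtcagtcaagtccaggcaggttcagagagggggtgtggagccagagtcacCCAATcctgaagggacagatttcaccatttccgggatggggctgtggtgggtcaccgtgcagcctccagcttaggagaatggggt
Mst1r: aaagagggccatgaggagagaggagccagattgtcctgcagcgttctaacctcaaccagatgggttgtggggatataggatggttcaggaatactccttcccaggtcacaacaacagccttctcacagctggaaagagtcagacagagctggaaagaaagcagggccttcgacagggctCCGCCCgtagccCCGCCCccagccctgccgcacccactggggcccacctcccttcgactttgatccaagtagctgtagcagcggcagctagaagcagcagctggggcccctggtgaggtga
No 2 matches overlap in these 4 sequences. The HNF1 half-site, a motif of liver and duct transcription factors, occurred at -8 relative to the start in Hgfac and at -32 in Spint1, and 7.1% of all 32841 promoters in the table held it. It was not particular to the lower members: a start region of Hgf, which was higher in the Epcam-derived tumours, held it at -94 (not shown). GC boxes occurred in Spint1 at -115, -54 and -19 and in Mst1r at -71 and -59, and 35.7% of all promoters held one. CCAAT occurred in Mst1 at -35 and in Spint1 at 37, and 37.4% of all promoters held it. An ETS core stood at -98 in Spint1, with 8.86% of all promoters holding one. The HNF4 core, the C/EBP motif TTGCNNAA, TATAAA and the E-box, held by 0.475%, 10.8%, 13.6% and 7.15% of all promoters, had no match in these 4 windows. GC content was 69.7% in the Spint1 window, 58.3% in Hgfac, 56.7% in Mst1 and 59.0% in Mst1r, against a median of 52.7% over all promoters. Spint1 held 28 CpG dinucleotides, Hgfac 2, Mst1 5 and Mst1r 8, against a median of 7 over all promoters. A match is a stretch of letters, and no binding was measured.

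St14 had log2 signals of 0.22 and -0.66 in the tumours with CLC, -3.85 and -3.48 in the CLC-free Epcam-derived tumours, and -1.90 and -0.75 in the Albumin-derived tumours. Both tumours with CLC were above all the others and both CLC-free Epcam-derived tumours below all the others, so no pair of groups overlapped. Group means were -0.22 ± 0.63 with CLC, -3.67 ± 0.26 in CLC-free Epcam-derived tumours and -1.32 ± 0.81 in Albumin-derived tumours (SD, n = 2 each). The difference was 3.45 ± 0.50 (log2, SE) with against without CLC and -2.35 ± 0.50 for CLC-free Epcam-derived against Albumin-derived tumours, a fold of 0.197. Tumours with CLC and Albumin-derived tumours, neighbours in this order, differed by 1.10 ± 0.50, with only 0.09 between tumour 2 with CLC and Albumin-derived tumour 2. The lower of the tumours with CLC still exceeded the higher CLC-free Epcam-derived tumour by 2.82. Within slide 2 the difference with against without CLC was 3.01, from 1 tumour with CLC, and within slide 1 the tumour with CLC differed from the Albumin-derived tumours by 1.55. With slide as a block the difference between CLC-free Epcam-derived and Albumin-derived tumours was -1.46 ± 0.82 (SE), a smaller distance than without the block. With normexp background correction the difference was 2.21 with against without CLC and -1.36 for CLC-free Epcam-derived against Albumin-derived tumours. A second St14 probe was not well above background on any of the 6 arrays and gives no fold.

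The RNA came from bulk tissue, in which fewer cells of a type and less RNA per cell cannot be told apart. Genes of bile duct cells were higher beside St14 in the tumours with CLC. Of 9 such markers measured, 8 had a positive difference with against without CLC, 7 of them with no overlap, beside 10.3% of all features. Their median was 1.19, beside -0.06 over all features. Their summed signal, in multiples of the array's 75th percentile, was 61.3 to 111 with CLC, 30.3 to 44.7 in CLC-free Epcam-derived tumours and 5.99 to 39.4 in Albumin-derived tumours. Spp1, osteopontin, which macrophages also make, carried 66.2% to 96.1% of that sum, and without it the sum was 2.42 and 4.75 with CLC, 2.03 and 2.27 in CLC-free Epcam-derived tumours and 2.03 and 2.55 in Albumin-derived tumours. Krt19, the duct keratin, was not well above background in Albumin-derived tumour 1, nor was Epcam there or in CLC-free Epcam-derived tumour 1. Macrophage markers were also higher with CLC, 7 of 7 by sign, at a median of 0.88, and 3 without overlap, beside the same 10.3% of all features. Their summed signal was 62.0 to 122 with CLC, 38.6 to 75.2 in CLC-free Epcam-derived tumours and 28.4 to 36.3 in Albumin-derived tumours. Of the stellate cell and fibroblast markers 8 of 10 and of the endothelial markers 5 of 7 had a positive difference. Without overlap there were 2 and 1, beside 10.3% of all features. Msln, the mesothelial marker mesothelin, was at -3.72 and -0.35 with CLC, -5.81 and -6.75 in CLC-free Epcam-derived tumours and -2.55 and -2.35 in Albumin-derived tumours. It was not well above background in either CLC-free Epcam-derived tumour, and at least 10.9-fold higher with CLC. Of the 3 mesothelial markers measured, 2 had a positive difference with against without CLC, 1 of them without overlap, at a median of 0.10. The mesothelial marker Wt1 differed by 0.10, with overlap. The part of these cell types in the St14 difference was not tested. The mean log2 signal of the biliary markers was -1.34 and -1.01 in the tumours with CLC, -2.23 and -2.47 in the CLC-free Epcam-derived tumours and -2.75 and -1.50 in the Albumin-derived tumours. This mean includes markers near background, with 6 of 9 well above it in Albumin-derived tumour 1 and 8 or 9 in each other tumour. Its relation to the St14 signal was not tested.

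Prss8, the gene of prostasin, had log2 signals of 1.47 and 0.77 with CLC, 1.30 and 1.57 in CLC-free Epcam-derived tumours and 0.09 and 1.05 in Albumin-derived tumours. Prostasin signal thus did not follow that of its partner matriptase: the group with the lowest St14 had the highest mean Prss8, and tumours with and without CLC overlapped. Prss8 differed by -0.32 ± 0.43 (log2, SE) with against without CLC, by 0.86 ± 0.43 for CLC-free Epcam-derived against Albumin-derived tumours, where the groups did not overlap, and by 0.55 ± 0.43 for tumours with CLC against Albumin-derived tumours. Without Albumin-derived tumour 1 the second of these was 0.39, and with slide as a block it was 1.57.

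Spint1, which encodes HAI-1, the inhibitor that matriptase also needs for its proper transport to the cell surface, had log2 signals of -1.28 and -0.24 with CLC, -2.20 and -2.12 in CLC-free Epcam-derived tumours and 0.36 and 1.09 in Albumin-derived tumours. The 3 groups lay apart in the order Albumin-derived, with CLC, then Epcam-derived without CLC, and none overlapped. Means were -0.76 ± 0.73 with CLC, -2.16 ± 0.05 in CLC-free Epcam-derived tumours and 0.72 ± 0.52 in Albumin-derived tumours (SD, n = 2 each). Spint1 differed by 1.40 ± 0.45 (log2, SE) with against without CLC, by -2.88 ± 0.45 for CLC-free Epcam-derived against Albumin-derived tumours, a fold of 0.136, and by -1.48 ± 0.45 for tumours with CLC against Albumin-derived tumours. With slide as a block these differences were 1.92, -3.92 and -2.00. The second Spint1 probe gave 1.25, -3.22 and -1.98 in the same comparisons, although it was not well above background in tumour 1 with CLC and CLC-free Epcam-derived tumour 1.

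Protease and inhibitor signals were also set against each other within each tumour, where only the change of the difference between tumours can be read. St14 minus Spint1 was 1.50 and -0.42 with CLC, -1.66 and -1.36 in CLC-free Epcam-derived tumours and -2.25 and -1.84 in Albumin-derived tumours. Both tumours with CLC were above the other 4, and they differed from each other by more than tumours of the other groups did, with an SD of 1.36 against 0.21 and 0.29. The mean of St14 minus Spint1 was higher by 2.05 on the log2 scale with than without CLC, by 0.54 in CLC-free Epcam-derived than in Albumin-derived tumours, where St14 was lower by less than Spint1 was, and by 2.59 in tumours with CLC than in Albumin-derived tumours, where St14 was higher and Spint1 lower. Spint2, which encodes the inhibitor HAI-2, was within 0.52 over all 6 arrays by its brighter probe, at 2.31 and 2.52 with CLC, 2.83 and 2.73 in CLC-free Epcam-derived tumours and 2.46 and 2.64 in Albumin-derived tumours. Its differences were -0.36, 0.23 and -0.14 (SE 0.25 each), and its second probe, which ran from 1.85 to 3.04 over the 6 arrays, gave -0.19, -0.42 and -0.61, so the sign of the second comparison depended on the probe.

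F2rl1, the gene of PAR2, was near the limit of detection, at -4.61 and -4.44 with CLC, -4.86 and -5.11 in CLC-free Epcam-derived tumours and -4.26 and -4.86 in Albumin-derived tumours. The first tumour with CLC and the second Albumin-derived tumour were not well above background. Differences were 0.46 ± 0.31 (log2, SE) with against without CLC, -0.43 ± 0.31 for CLC-free Epcam-derived against Albumin-derived tumours and 0.03 ± 0.31 for tumours with CLC against Albumin-derived tumours, and in the middle one the groups cleared overlap by 0.0051.

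**Figure D2:**
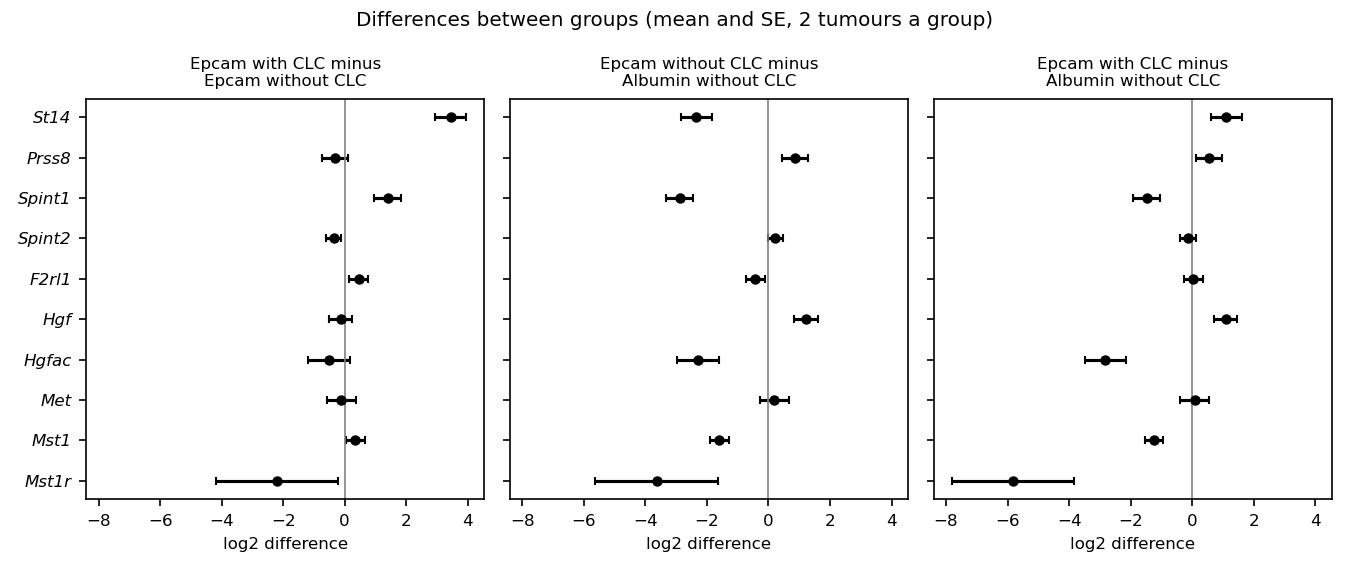
Log2 difference of the 10 genes in the 3 comparisons (horizontal axis; points are differences of group means, bars are SEs from the limma fit of all 6 arrays, 2 tumours a group; the vertical line is 0). St14 lies at 3.45, -2.35 and 1.10, Spint1 at 1.40, -2.88 and -1.48, and the bars of Mst1r are the widest, with an SE of 1.99.

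Hgf, the ligand of MET, had log2 signals of -1.84 and -2.57 with CLC, -1.82 and -2.33 in CLC-free Epcam-derived tumours and -3.08 and -3.50 in Albumin-derived tumours. All 4 Epcam-derived tumours were above both Albumin-derived tumours, and the Epcam-derived groups overlapped. Hgf differed by -0.13 ± 0.38 (log2, SE) with against without CLC, by 1.22 ± 0.38 for CLC-free Epcam-derived against Albumin-derived tumours, a fold of 2.33, and by 1.08 ± 0.38 for tumours with CLC against Albumin-derived tumours. With normexp background correction the last 2 were 0.48 ± 0.27 and 0.62 ± 0.27 (SE), and with slide as a block the first of these was 1.95. A probe for another Hgf transcript gave 0.16, 1.61 and 1.77. Within slide 1 the tumour with CLC differed from Albumin-derived tumours by 1.45. Stellate cell and fibroblast markers, of some of the cells that make HGF in the liver, were compared with Albumin-derived tumours. Their median difference was 0.21 for CLC-free Epcam-derived tumours and 0.69 for tumours with CLC, with 8 and 9 of 10 measured markers positive. Their summed signal was 58.1 to 82.5 with CLC, 38.8 to 93.5 in CLC-free Epcam-derived tumours and 35.9 to 47.5 in Albumin-derived tumours. Endothelial markers had medians of 0.33 and 0.58 in these 2 comparisons, with 5 and 7 of 7 positive. Macrophage markers had medians of 0.93 and 1.69, with 6 and 7 of 7 positive. The part of these cell types in the Hgf difference was not tested.

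Hgfac, the gene of the plasma protease that activates HGF, had log2 signals of 4.77 and 3.06 with CLC, 5.08 and 3.79 in CLC-free Epcam-derived tumours and 6.76 and 6.71 in Albumin-derived tumours. Every Epcam-derived tumour was below both Albumin-derived tumours, which differed from each other by 0.05, and the Epcam-derived groups overlapped. Hgfac differed by -0.52 ± 0.68 (log2, SE) with against without CLC, by -2.30 ± 0.68 for CLC-free Epcam-derived against Albumin-derived tumours, a fold of 0.203, and by -2.82 ± 0.68 for tumours with CLC against Albumin-derived tumours, a fold of 0.142. Its size depended on the slide term. With slide as a block the difference between CLC-free Epcam-derived and Albumin-derived tumours was -0.59 ± 0.86 (SE), that of tumours with CLC against Albumin-derived tumours was -1.97, and that with against without CLC was -1.37. Ligand and activator therefore lay in opposite directions between Epcam-derived and Albumin-derived tumours, with Hgf higher and Hgfac lower in each Epcam-derived tumour.

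Met, the receptor, had log2 signals of 2.04 and 2.34 with CLC, 1.70 and 2.90 in CLC-free Epcam-derived tumours and 1.82 and 2.39 in Albumin-derived tumours. By this brighter probe all groups overlapped, and the widest spread was between the CLC-free Epcam-derived tumours. Differences were -0.11, 0.20 and 0.08 (log2, SE 0.47 each), and the second Met probe gave -0.19, -0.58 and -0.77. By the second probe tumours with CLC, at -0.95 and -0.72, lay below Albumin-derived tumours, at -0.29 and 0.17, without overlap. The other pairs of groups overlapped by that probe too. A difference in Met was not detectable by the brighter probe with 2 tumours a group, and the sign of the comparisons against Albumin-derived tumours depended on the probe.

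Mst1, the gene of the hepatocyte-secreted ligand MSP, had log2 signals of 5.60 and 5.29 with CLC, 4.82 and 5.37 in CLC-free Epcam-derived tumours and 6.76 and 6.61 in Albumin-derived tumours. Both Albumin-derived tumours were above all 4 Epcam-derived tumours. Mst1 differed by 0.35 ± 0.30 (log2, SE) with against without CLC, by -1.59 ± 0.30 for CLC-free Epcam-derived against Albumin-derived tumours, a fold of 0.332, and by -1.24 ± 0.30 for tumours with CLC against Albumin-derived tumours. With slide as a block the last 2 were -1.29 and -1.09, and with quantile normalization they were -1.10 and -0.78.

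Mst1r, the gene of the receptor RON, had log2 signals of -6.02 and -2.23 with CLC, 0.78 and -4.64 in CLC-free Epcam-derived tumours and 1.80 and 1.61 in Albumin-derived tumours, and the first tumour with CLC was not well above background. Both Albumin-derived tumours were above the other 4, which spread over 6.80 on the log2 scale. Differences were -2.19 ± 1.99 (log2, SE) with against without CLC, -3.63 ± 1.99 for CLC-free Epcam-derived against Albumin-derived tumours and -5.83 ± 1.99 for tumours with CLC against Albumin-derived tumours. The difference between CLC-free Epcam-derived and Albumin-derived tumours was decided by single tumours, at -0.92 without the second Epcam-derived tumour and -6.35 without the first. With slide as a block it was -7.42 ± 3.19 (SE).

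Hepatocyte markers were lower beside Hgfac and Mst1, which hepatocytes secrete. Of 8 such markers, 7 had a negative difference for CLC-free Epcam-derived against Albumin-derived tumours and 8 for tumours with CLC against Albumin-derived tumours. Of them 5 and 6 were lower without overlap, beside 24.8% and 27% of all features. Medians were -0.79 and -1.14, beside 0.06 and -0.01 over all features. With against without CLC the median was -0.0044, with 4 markers positive and 4 negative. Only 1 was apart without overlap, Cps1, which differed by -1.64 ± 0.33, beside 19.8% of all features lower without overlap. The summed signal of the 8 markers was 1357 to 1818 with CLC, 1343 to 1790 in CLC-free Epcam-derived tumours and 2882 to 3161 in Albumin-derived tumours, and all 8 were well above background on every array. Alb, the albumin gene, was at 9.87 and 9.41 with CLC, 9.81 and 9.52 in CLC-free Epcam-derived tumours and 10.35 and 10.16 in Albumin-derived tumours. The part of hepatocyte content in the Hgfac, Mst1 and Mst1r differences was not tested.

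Around these 10 genes, 114 further genes of the same circuit were grouped in 7 lists, of which 90 passed the filter on dim probes and count as measured. With limma 0 of the 90 passed in any comparison over all features, and 9, 22 and 24 had an unadjusted p under 0.05 with against without CLC, for CLC-free Epcam-derived against Albumin-derived tumours and for tumours with CLC against Albumin-derived tumours, beside 3.48%, 20% and 16% of all features. Medians of each list are log2 differences in that order of comparisons.

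Of 23 other membrane-anchored serine proteases, 9 were measured. With against without CLC, 7 of these had a negative difference, opposite in sign to St14, 5 of them without overlap, beside 19.8% of all features. Their median was -0.37, beside -0.06 over all features. The tryptase Tpsg1 led the list with CLC, where it was not well above background on either array and at least 3.15-fold lower than in CLC-free Epcam-derived tumours. Tmprss7, an epithelial relative also named matriptase-3, differed by -3.83 ± 1.20 for CLC-free Epcam-derived against Albumin-derived tumours and by -3.12 ± 1.20 for tumours with CLC against Albumin-derived tumours. Its signal in Albumin-derived tumour 1 was 1.34, against -2.26 in the second. Hepsin (Hpn), the hepatocyte protease that also cleaves HGF, was singled out after its values were seen: it was at 6.07 and 5.67 with CLC, 5.73 and 5.79 in CLC-free Epcam-derived tumours and 6.44 and 6.16 in Albumin-derived tumours, differing by 0.11, -0.54 and -0.43.

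All 10 HGF-activating and plasma proteases listed were measured. Their medians were -0.32, -0.91 and -1.01 beside -0.06, 0.06 and -0.01 over all features, with 8 of 10 negative in each comparison. In both comparisons against Albumin-derived tumours 7 were lower without overlap, beside 24.8% and 27% of all features. Coagulation factor XI (F11), a plasma protease made by hepatocytes, led in all 3 comparisons. It had log2 signals of 1.69 and 1.05 with CLC, 2.58 and 2.35 in CLC-free Epcam-derived tumours and 4.19 and 4.25 in Albumin-derived tumours, and no pair of groups overlapped. F11 differed by -1.09, -1.75 and -2.85 (SE 0.31 each). The list medians had the sign of the Hgfac differences. Hepatocyte markers were lower beside them in both comparisons against Albumin-derived tumours, but not with against without CLC, where 4 of 8 were above zero and 4 below.

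Of 14 further serpin and Kunitz inhibitors, 11 were measured, with medians of 0.13, -0.46 and -0.78. Serpinf2, the plasmin inhibitor antiplasmin, differed by -0.998 ± 0.34 with against without CLC, at 5.86 and 6.56 in tumours with CLC, against 7.41 and 7.01 in CLC-free Epcam-derived tumours. Serpina5, the protein C inhibitor, differed by 2.61 ± 1.55 for tumours with CLC against Albumin-derived tumours, and was not well above background in Albumin-derived tumour 1.

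**Figure D3:**
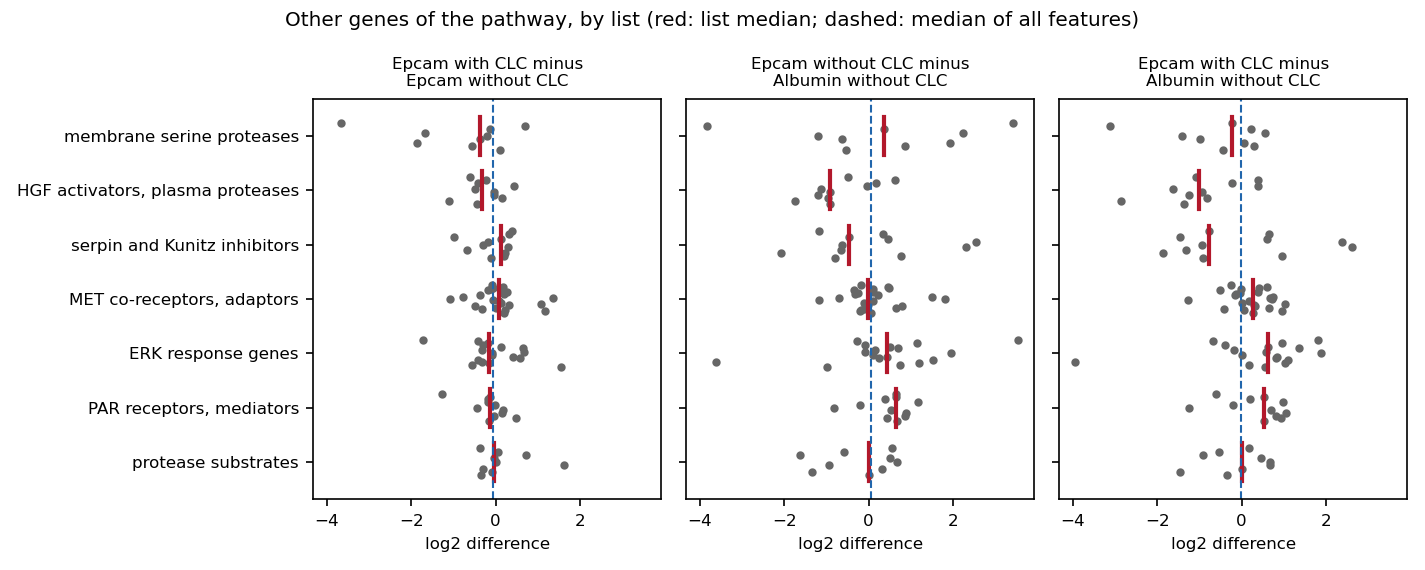
Log2 differences of the measured genes of 7 lists around matriptase and HGF signalling in the 3 comparisons (horizontal axis; each grey point is 1 gene, red bars are list medians and dashed lines the median of all 27412 features). HGF-activating and plasma proteases have medians of -0.32, -0.91 and -1.01, and 0 genes passed limma's test over all features.

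Downstream of MET, all 23 co-receptors, adaptors and negative regulators listed were measured, with medians of 0.08, -0.01 and 0.26. Pik3r1, the regulatory subunit of phosphoinositide 3-kinase, differed by 1.36 ± 0.50 with against without CLC, at 2.40 and 1.11 in tumours with CLC, against 0.66 and 0.13 in CLC-free Epcam-derived tumours. Pik3ca, the catalytic subunit, differed by 1.81 ± 0.75 for CLC-free Epcam-derived against Albumin-derived tumours. Nrp2, a neuropilin co-receptor, differed by -1.26 ± 0.36 for tumours with CLC against Albumin-derived tumours. Of 19 genes that respond to ERK signalling, 17 were measured, with medians of -0.15, 0.43 and 0.64. The immediate early gene Egr1 was at -0.45 and 2.35 with CLC, 2.13 and 0.42 in CLC-free Epcam-derived tumours and 4.93 and 4.84 in Albumin-derived tumours, and differed by -3.61 ± 1.01 and -3.94 ± 1.01 in the comparisons against Albumin-derived tumours, opposite in sign to the list medians. Spry4, a feedback inhibitor of the pathway, was at -5.59 and -3.68 with CLC, against -1.92 and -3.89 in CLC-free Epcam-derived tumours, with overlap; it was not well above background in tumour 1 with CLC, so its difference of -1.73 ± 0.85 rests in part on background.

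Of 13 protease-activated receptors and their mediators, 11 were measured, with medians of -0.13, 0.65 and 0.53. The mast cell tryptase Tpsb2, which can cleave PAR2, differed by -1.26 ± 0.56 with against without CLC. Gna12, a G protein subunit, was at least 1.94-fold higher in CLC-free Epcam-derived than in Albumin-derived tumours and not well above background in either Albumin-derived tumour. Coagulation factor VII (F7) differed by -1.24 ± 0.38 for tumours with CLC against Albumin-derived tumours. Of 12 genes whose proteins matriptase or prostasin cleave or whose junctions they act on, 9 were measured, with medians of -0.04, 0.01 and 0.02, close to those of all features. Epcam, a matriptase substrate and duct marker, was at -3.69 and -3.86 with CLC, -5.61 and -5.18 in CLC-free Epcam-derived tumours and -5.59 and -3.31 in Albumin-derived tumours, and differed by 1.62 ± 0.73 with against without CLC. The laminin chain Lamb3 differed by -1.63 ± 0.86 for CLC-free Epcam-derived against Albumin-derived tumours, and E-cadherin (Cdh1) by -1.45 ± 0.50 for tumours with CLC against Albumin-derived tumours.

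The genes most like St14 over the 6 arrays were sought among 1994 symbols with an SD of at least 1 log2 unit, by Pearson's r. Among the 5 highest were the desmosomal plakophilin Pkp3 at 0.948, the epithelial mucin Muc13 at 0.946, the ATP-gated channel P2rx5 at 0.939 and Cfd, the adipocyte protease adipsin, at 0.911. Likeness over 6 arrays in 3 groups is a description, since arrays of a group share their treatment. Cfd was well above background on only 2 of the 6 arrays, both with CLC. Muc13, well above background on all 6, was at 1.21 and 1.07 with CLC, -2.87 and -2.98 in CLC-free Epcam-derived tumours and -0.91 and 2.05 in Albumin-derived tumours, so Albumin-derived tumour 2 was above both tumours with CLC. P2rx5 was at -2.47 and -2.36 with CLC, -4.47 and -4.87 in CLC-free Epcam-derived tumours and -2.96 and -2.34 in Albumin-derived tumours. Among the members Spint1 was the most like St14, at 0.59, with 117 eligible genes closer to St14 than it was. Spint2 was the least, at -0.84 by its brighter probe, whose SD over the 6 arrays was only 0.19. No r was taken for its second probe.

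**Figure D4:**
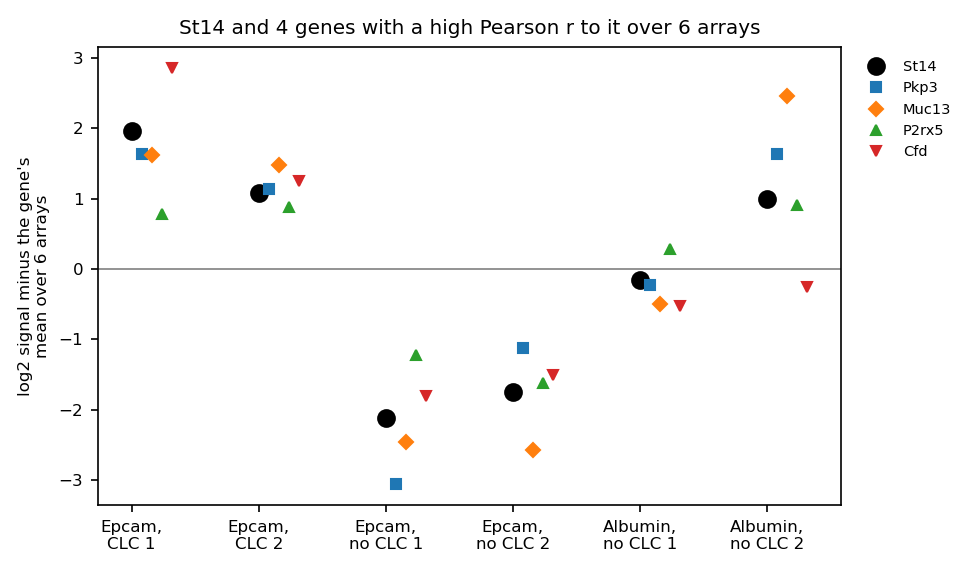
Log2 signal of St14 and of 4 genes with a high Pearson r to it (Pkp3, Muc13, P2rx5 and Cfd), each minus its own mean over the 6 arrays (vertical axis), in the 6 tumours (horizontal axis). The 4 genes were chosen for sharing the pattern of St14, and in Albumin-derived tumour 2 Muc13 lies above St14 and Cfd below it.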

How the data were processed

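The deposited scanner tables give 1 spot a row. Per the file headers, the scans of an array design annotated on mm9 went through Agilent Feature Extraction 11.5.1.1, and the processed intensity had its local background subtracted and trends removed, with no scaling between arrays. Yes or no marks for each spot (well above background, outlier, saturated) are other columns of the same deposited tables. The authors' value table holds the same processed intensity times 1 factor per array. It was used as an alternative, and what set the factors is not given in the sources used here.

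From these, control spots and spots marked as outliers were dropped, log2 of the processed intensity minus the array's 75th percentile over the 59305 non-control spots was taken, and spots of a probe were averaged. A probe was kept where it was well above background, in at least 0.5 of its spots, on both arrays of at least 1 group, which left 34777 of 56605 probes. Accessions were matched to symbols in a RefSeq gene table (GRCm38.p6, names only), and the brightest probe stood for a symbol. The 10 genes had 15 probes, and 5 genes had 2. The 27412 features were fitted in 1 limma 3.58.1 model of all 6 arrays in R 4.3.3 (lmFit and eBayes, 3 residual and 2.62 prior degrees of freedom), with two-sided p adjusted by Benjamini-Hochberg over all features at 0.05. Values after ± are SEs of differences unless SD is written. For a fold given as at least, signals of the dim group were raised to a floor where they lay below it. The floor was the lowest signal on the array among probes marked well above background. The limit of a single probe can lie above that floor, so such a fold is not a strict lower bound. In Albumin-derived tumour 1 the floor was -4.75, and Gna12 at -4.53 was not well above background. The fit was tested on simulated data with independent noise and no slide effect, so its behaviour under a slide effect was not tested. The number of arrays limits the precision. Pairing was checked for replicate numbers, whose deviations correlated at 0.06, -0.16 and 0.23 between groups, and no label says what a number shares.

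The 10 genes, the lists around them and the marker lists were chosen with earlier results of these data known. Of each list around them, the gene with the largest difference in each comparison is named (of the marker lists, only those beside a result), along with the 5 genes most like St14 (2 genes under these rules are not reported here) and, as checks of labels, Epcam, Krt19, Alb and Afp; Afp was at 1.18 and 3.97 with CLC, 3.14 and 2.33 in CLC-free Epcam-derived tumours and 3.50 and 5.32 in Albumin-derived tumours. Promoters are RefSeq's, and 7 of 10 genes matched the table. Alternatives were other background corrections, scalings, filters, probe rules, blocks, fits and left-out arrays. Normexp used median spot and background intensity with an offset of 50.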

Additional observations from a re-analysis of the deposited data

How the results depend on the processing

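Of the 10 genes, 0 passed over all features under each of 21 alternatives, 20 for CLC-free Epcam-derived against Albumin-derived tumours, with 1 exception. Under normexp on the median spot signal 1 gene passed in that comparison, Spint1, at -2.31 ± 0.31 (log2, SE; limma, adjusted p = 0.0482). Its adjusted p was 0.0765 with the processed signal and ran from 0.0482 to 0.393 over the alternatives. For tumours with CLC against CLC-free Epcam-derived tumours, 0 features passed throughout.

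The numbers of features called moved for the other comparisons, and the cause was not tested. For CLC-free Epcam-derived against Albumin-derived tumours, 67 features became 136 with normexp, 106 with the array median as scale, 1 with no filter on dim probes, 32 with a filter on all arrays, 110 with the mean over probes, 40 with named features only, 0 with slide as a block, 16 with these groups fitted alone and 129 with the authors' values left unscaled, an alternative chosen after seeing the data. For tumours with CLC against Albumin-derived tumours, 17 features became 68 with normexp, 66 with quantile normalization, 35 with the array median, 1 with no filter, 0 with slide as a block, 0 within slide 1, 0 with these groups alone and 39 with an eBayes trend. With a replicate block the counts were 11 and 0 in these comparisons; the tumours are not shown to be paired by number. Leaving out each array in turn gave 0 to 16 features for CLC-free Epcam-derived against Albumin-derived tumours and 0 to 0 for tumours with CLC against Albumin-derived tumours. A fit within 1 slide could not be had for CLC-free Epcam-derived against Albumin-derived tumours.

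St14 kept its sign in each alternative, from 2.21 to 3.89 for tumours with CLC against CLC-free Epcam-derived tumours, from -2.92 to -1.36 for CLC-free Epcam-derived against Albumin-derived tumours and from 0.53 to 1.68 for tumours with CLC against Albumin-derived tumours. Spint1 ran from 0.88 to 1.92, from -3.92 to -2.31 and from -2.00 to -0.96 in these comparisons. Hgfac for CLC-free Epcam-derived against Albumin-derived tumours ran from -2.94 to -0.59 and Mst1 from -1.86 to -1.10. Signs changed in at least 1 alternative for Met in all 3 comparisons, for Hgf, Hgfac, Mst1r and Prss8 for tumours with CLC against CLC-free Epcam-derived tumours, for Spint2 in both comparisons against Albumin-derived tumours, and for F2rl1 for tumours with CLC against Albumin-derived tumours. Dim signal limits F2rl1 and Mst1r, and 2 tumours a group limit every comparison.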
